A study of Homo sapiens with 3 samples.

Results

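The zinc finger gene clusters of human chromosome 19 were examined for sites of p63 and ZNF148 in FaDu cells. They were taken as the hg19 intervals chr19:20000000-24500000 in band 19p12 and chr19:52300000-59100000 in band 19q13.4, and a peak belonged to a cluster when its summit lay inside. Of the 61591 deposited peak rows of both lists, 224 met this rule, 52 of them from the p63 list and 172 from the ZNF148 list. Some intervals carry several summits on separate rows, so the rows correspond to 50 p63 peaks and 158 ZNF148 peaks. The band 19p12 held 10 p63 and 16 ZNF148 peaks, and 19q13.4 held 40 and 142. The comparison is with the rest of chromosome 19, which held 464 p63 and 1580 ZNF148 peaks.

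FaDu is an established cell line of pharyngeal squamous carcinoma origin, and the cells were untreated. Chromatin immunoprecipitation with sequencing (ChIP-seq) was done with an antibody against ΔNp63α in 1 library and against ZNF148 in another, and an input library without antibody was the third of 3 samples. Per the labels the DNA came from 3 independent ChIP assays, but each antibody has 1 peak list, so there is no replicate error for any value and no p-value is given. All intervals are 95% intervals for the counting error alone, as if peaks were independent of each other.

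KRAB zinc finger genes encode DNA-binding repressors with arrays of zinc fingers. They multiplied by tandem duplication, which left long rows of related genes on chromosome 19, and many of the proteins bind transposable elements and recruit the corepressor TRIM28. Zinc finger gene clusters on this chromosome are known for the repressive histone mark H3K9me3 over their zinc finger exons. ΔNp63α, the form of p63 found in the basal layer of squamous epithelia, binds p53-like response elements, and ZNF148 is itself a zinc finger protein, one that binds GC-rich DNA.

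The RefSeq gene table (GRCh38.p14), another build than that of the peaks, was used for gene names and their order only. Of its 1451 coding genes on chromosome 19, 265 have a zinc finger name. The longest unbroken row of such neighbours has 27 genes, from ZNF737 over ZNF85, ZNF43, ZNF208 and ZNF91 to ZNF681. Between the zinc finger genes ZNF331 and ZNF582 lie 104 coding genes, of which only 12 have a zinc finger name. They include 19 genes of the leukocyte receptor families LILR, LAIR and KIR, which encode receptors of immune cells. The chromosome has further rows of zinc finger genes, among them 24 neighbours from ZNF627 to ZNF791 and 24 from ZNF565 to ZNF793, so the rest of chromosome 19 is not free of them. Without an hg19 annotation no peak was assigned to a gene, and peaks are given by position. For the same reason these rows of genes were not placed within the intervals. A peak counted in a cluster therefore need not lie at a zinc finger gene.

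Taken as a whole, each cluster had fewer peaks of both proteins per Mb than the rest of the chromosome, and 19p12 was the emptier of the 2. This does not hold for every part of 19q13.4, whose middle 2.5 Mb had 44.8 ZNF148 peaks per Mb (described below). In 19p12, p63 had 2.22 peaks per Mb (1.07 to 4.09), against 10.4 per Mb (9.51 to 11.4) in the rest, so the rest was 4.70 times as dense (2.53 to 9.86). ZNF148 had 3.56 peaks per Mb in 19p12 (2.03 to 5.77) and 35.5 in the rest (33.8 to 37.3), a ratio of 10.00 (6.14 to 17.5). This band made up 8.07% of the length compared and held 1.95% of the p63 and 0.921% of the ZNF148 peaks of the chromosome. In 19q13.4 the density was 5.88 per Mb for p63 (4.20 to 8.01) and 20.9 per Mb for ZNF148 (17.6 to 24.6). The rest was 1.77 times as dense in p63 peaks (1.28 to 2.52) and 1.702 times as dense in ZNF148 peaks (1.43 to 2.04). None of these 4 ratios had an interval that reached 1, but the intervals treat peaks as independent. Of the ZNF148 peaks, 64.8% in 19q13.4 and 57.3% in the rest lay in stretches of closely set peaks (described below). The intervals are therefore likely too narrow, and they are no test of a difference. The length of the rest, 44.5 Mb, leaves out the longest stretch without a peak of either list, 3.15 Mb from 24577296 to 27732115. Copy number in FaDu was not taken into account.

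**Figure D1:**
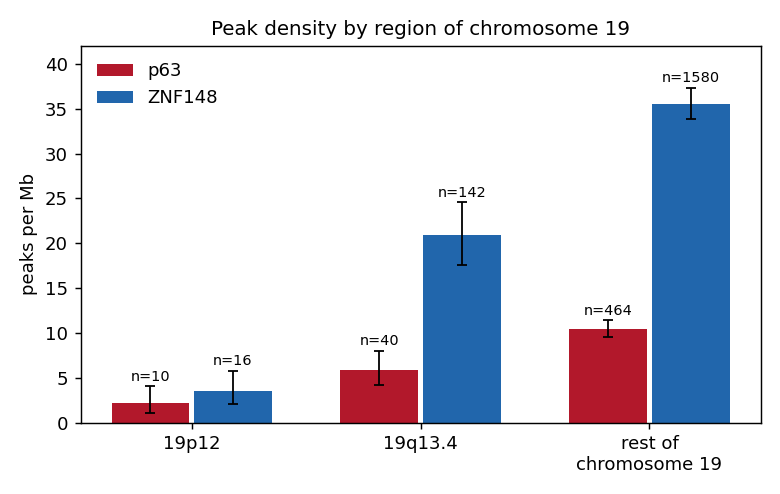
Peaks per Mb (vertical axis) for p63 and ZNF148 in the 2 clusters and in the rest of chromosome 19, with exact Poisson intervals as bars and the number of peaks above each column. ZNF148 falls from 35.5 per Mb in the rest to 3.56 in 19p12, and p63 from 10.4 to 2.22.

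The balance of the lists differed less clearly. There were 1.60 ZNF148 peaks per p63 peak in 19p12 (0.683 to 3.94), 3.55 in 19q13.4 (2.48 to 5.18) and 3.41 in the rest (3.07 to 3.79). The interval of 19p12 rests on 26 peaks and includes the value of the rest. The lists differ in length as deposited, so the ratio is read only between regions.

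In windows of 0.5 Mb, all 9 windows of 19p12 lay below the median of the rest for both proteins. The 88 windows of the rest had a median of 5 p63 peaks (0 to 15) and 16.5 ZNF148 peaks (0 to 60). Those of 19p12 had a median of 1 p63 peak (0 to 3) and 1 ZNF148 peak (0 to 7), and 2 of them held no peak of either list, as did 1 of the 88. The 13 full windows of 19q13.4 ranged more widely, from 0 to 10 p63 peaks and from 1 to 44 ZNF148 peaks. Of these, 10 lay below the median of the rest for p63 and 10 for ZNF148. The p63 windows at or above it held 5, 7 and 10 p63 peaks. The ZNF148 windows above it held 25, 28 and 44 ZNF148 peaks, and only 1 window, from 55800000 to 56300000, belonged to both sets.

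**Figure D2:**
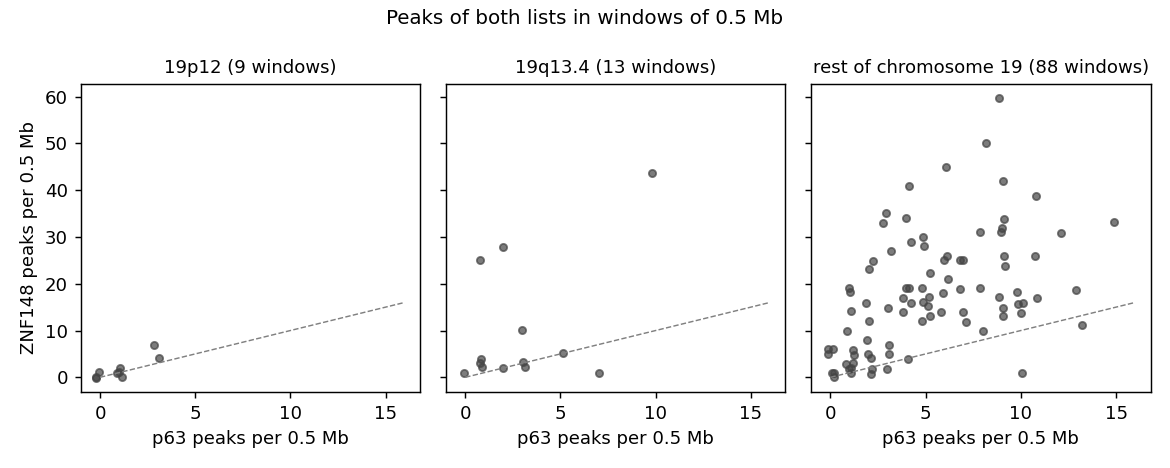
Each point is a window of 0.5 Mb, with its number of p63 peaks (horizontal) and ZNF148 peaks (vertical). Points are jittered by up to 0.25, and the dashed line marks equal numbers. The 9 windows of 19p12 gather near the origin, while those of 19q13.4 spread up to 10 p63 and 44 ZNF148 peaks.

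Peaks were few in the first 3.5 Mb of 19p12, and most lay toward the centromere. The window from 23500000 to 24000000 was the richest, with 3 p63 and 7 ZNF148 peaks, followed by the last window, from 24000000 to 24500000, with 3 and 4. The windows starting at 20000000 and 22000000 were empty. The longest stretch of 19p12 without a summit of either list ran 0.961 Mb, from 21788280 to 22748941. For p63 alone it was 1.705 Mb, from 21788280 to 23492877, and for ZNF148 alone 1.03 Mb, from 20656009 to 21688594.

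The 10 p63 peaks of 19p12 had deposited fold enrichments (over local background at the summit) of 4.41 to 35.8. The first along the chromosome, at chr19:20990905-20991061, had a fold of 7.06, and its nearest ZNF148 summit was 335 kb away. The second, at chr19:21203663-21203873, had a fold of 12.4 with the nearest ZNF148 summit at 485 kb. The strongest was the third, at chr19:21788097-21788418, with a fold of 35.8 and a −log10 q of 109.2. Its nearest ZNF148 peak was weak, with a fold of 5.77 at a distance of 49.9 kb. None of these 3 peaks thus had a ZNF148 neighbour close by.

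After the long gap came the weakest p63 peak of 19p12, at chr19:23492822-23493012 with a fold of 4.41. It was followed by chr19:23664045-23664211 with a fold of 9.03 and chr19:23725517-23725665 with a fold of 6.38. The last was 6.55 kb from a ZNF148 summit, and the other 2 lay 25.4 and 45.5 kb from one. The remaining 4 p63 peaks of the band, all farther toward the centromere, overlapped ZNF148 peaks.

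At chr19:23732169-23732451 the p63 peak had a fold of 11.5 and touched 2 ZNF148 peaks, one on either side. These were chr19:23732009-23732259 with a fold of 20.1 and a summit 186 bp away, and chr19:23732434-23732602 with a fold of 8.75 and a summit 201 bp away. The p63 summit was thus flanked by ZNF148 summits rather than matched by one. Together with the ZNF148 peak at chr19:23737253-23737467 (fold 10.0) they formed the only stretch in 19p12 of at least 3 closely set peaks of a list (neighbour limit under methods).

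In the other 3 shared pairs of 19p12 the summits nearly coincided. At chr19:24300081-24300293 the p63 fold was 25.6 and the ZNF148 fold 33.2, with summits 5 bp apart. This ZNF148 peak, at chr19:24300059-24300342, was the strongest of the band and the only one of its 16 in the top 10% of the whole ZNF148 list by q value. At chr19:24078706-24078910 the folds were 9.27 for p63 and 13 for ZNF148 and the summits 12 bp apart. At chr19:24335907-24336180 they were 12.4 and 13 and the summits 16 bp apart. All 3 pairs lay within the last 0.5 Mb of the band. The next pair beyond the limit, at chr19:24577182-24577415, had folds of 12.4 for p63 and 11.3 for ZNF148 with summits 20 bp apart. It is counted with the rest and is the last before the longest peak-free stretch.

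The other ZNF148 peaks of 19p12 were modest. The strongest unshared ones were chr19:21688465-21688752 with a fold of 13.7 and chr19:23618521-23618777 with a fold of 12.3. The eighth by q value, chr19:23457055-23457229, had a fold of 8.95. The weakest, chr19:23796529-23796797, had a fold of 4.38 and a −log10 q of 3.03, next to the lowest value in the list. The peak at chr19:22748837-22749050, with a fold of 8.66, was the most isolated, 744 kb from any p63 summit.

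**Figure D3:**
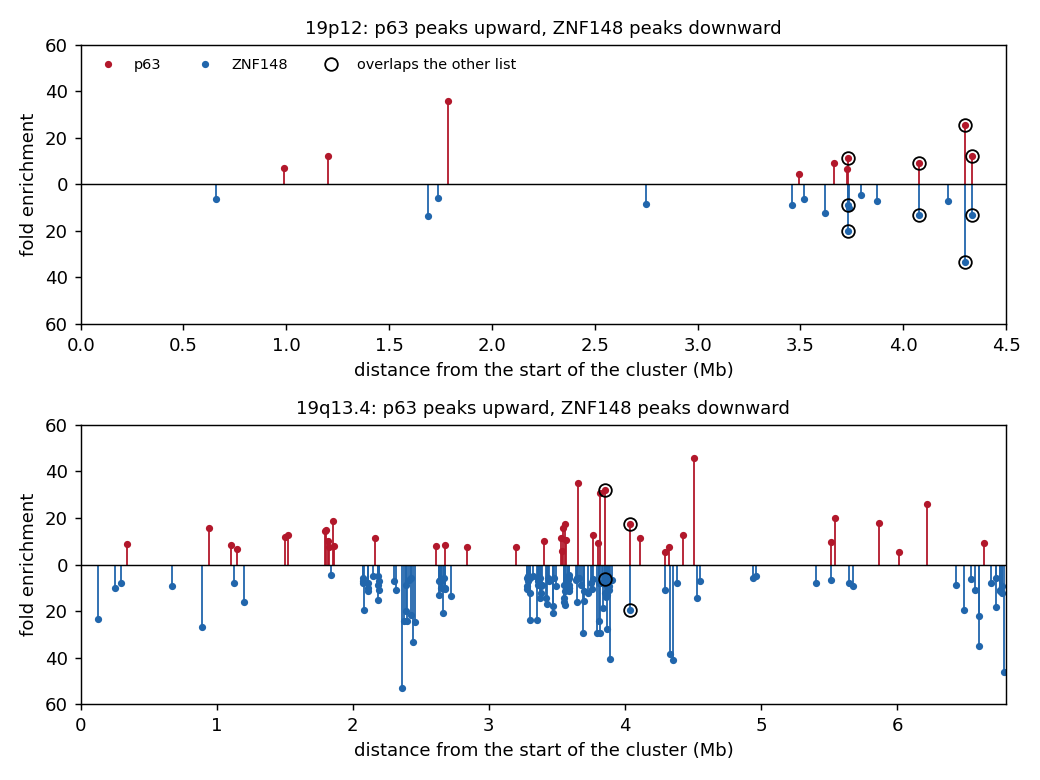
Fold enrichment (vertical axis, p63 upward and ZNF148 downward) of every peak against its distance from the start of the cluster in Mb, with 19p12 above and 19q13.4 below. Circles mark peaks that overlap a peak of the other list. Shared peaks of 19p12 lie beyond 3.5 Mb, and 19q13.4 has a dense middle of ZNF148 peaks with 2 shared p63 peaks.

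Peaks of 19q13.4 were unevenly placed, with a dense middle of ZNF148 peaks between sparser ends. These limits were chosen after the values were seen, as the longest run of windows with at least 5 ZNF148 peaks each, so the ZNF148 values of the 3 stretches follow from that choice and are a description. From 54300000 to 56800000, 2.5 Mb held 112 of the 142 ZNF148 peaks, or 44.8 per Mb (36.9 to 53.9). The 2 Mb before it held 8 ZNF148 peaks, or 4 per Mb (1.73 to 7.88), and the 2.3 Mb after it 22, or 9.57 per Mb (5.99 to 14.5). For comparison, 19p12 had 3.56 per Mb and the rest of the chromosome 35.5.

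In the same stretches p63 had 21 peaks in the middle, or 8.40 per Mb (5.20 to 12.8), against 12 in the first 2 Mb, or 6 per Mb (3.10 to 10.5), and 7 in the last 2.3 Mb, or 3.04 per Mb (1.22 to 6.27). The p63 intervals of the first, middle and last stretches all overlap one another, so no p63 difference between them is shown. In the first 2 Mb p63 had more peaks than ZNF148, 12 against 8. The window from 53800000 to 54300000 held 7 p63 peaks, with folds of up to 18.5, and 1 ZNF148 peak with a fold of 4.55. p63 outnumbered ZNF148 in 2 of the 13 full windows of 19q13.4, in 1 of the 9 of 19p12 and in 4 of the 88 of the rest.

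The richest window of 19q13.4, from 55800000 to 56300000, held 10 p63 and 44 ZNF148 peaks. The windows from 54300000 and from 55300000 had 25 and 28 ZNF148 peaks with only 1 and 2 of p63. The poorest full window, from 57300000 to 57800000, had 1 ZNF148 peak with a fold of 7.94 and no p63 peak. It lay within the longest p63-free stretch of the band, 1.01 Mb from 56807077 to 57816612. For ZNF148 the longest was 0.753 Mb from 57977904 to 58730538, and for both lists together 0.441 Mb from 57262773 to 57703631.

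ZNF148 peaks of 19q13.4 came in tight groups. The median distance between neighbouring ZNF148 summits was 9.84 kb (quartiles 1.51 and 28.3) there, 10.5 kb in the rest (1.89 and 30.1) and 84.0 kb in 19p12 (54.5 and 173). The groups thus kept the spacing of the rest although the band as a whole had fewer peaks. Stretches of at least 3 closely set peaks held 92 of the 142 peaks, or 64.8% (56.6 to 72.2%), against 57.3% in the rest (54.9 to 59.8%) and 3 of 16 in 19p12. For p63 the median distance was 90.5 kb in 19q13.4, 213 kb in 19p12 and 50.2 kb in the rest. Only 5 of its 40 peaks lay in such a stretch (interval 5.46 to 26.1%), near the 11.6% of the rest (9.03 to 14.9%).

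The largest ZNF148 stretch, chr19:55852188-55891677, held 13 peaks with folds of 4.33 to 17.3. The next, chr19:56152473-56186855, held 12 peaks with folds of up to 40.6. Stretches of 9 lay at chr19:54931577-54975897 and chr19:55580371-55602293, without a p63 peak in either. The only p63 stretch of the clusters, chr19:55827595-55867336, had 5 peaks with folds of 5.74 to 17.2. It ran into the largest ZNF148 stretch, and 5 ZNF148 summits lay within it, but no peak of one list overlapped a peak of the other there. The proteins were thus close neighbours at this place without a shared site. With 5% of all p63 peaks of 19q13.4 shared, and 16.8% in the rest, none among 5 does not set the place apart.

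The strongest p63 peak of both clusters lay at chr19:56806933-56807223 in 19q13.4, with a fold of 45.9 and a −log10 q of 151.7, and 18.9 kb from the nearest ZNF148 summit. The second by q value, chr19:56154706-56154999 with a fold of 32.2, was shared. The third, chr19:56112644-56112913, had a fold of 30.9 and a ZNF148 summit 1.04 kb away, and the fourth, chr19:55957547-55957859, a fold of 34.9 with one at 5.28 kb. These 2 strong p63 peaks had ZNF148 nearby but not at the same site. The next 3 lay in the sparse end of the band. They were chr19:58520301-58520541 with a fold of 25.8, chr19:57845612-57845890 with 19.8 and chr19:58162711-58163002 with 17.8, at 210, 31.0 and 185 kb from the nearest ZNF148 summit. The eighth, chr19:54092750-54093044, had a fold of 14.4, and the weakest by fold, chr19:58316494-58316658, one of 5.29.

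Among ZNF148 peaks of 19q13.4 the strongest was chr19:54663639-54663980, with a fold of 53.2 and a −log10 q of 142.9. It stood 205 kb from any p63 summit. The next were chr19:56186414-56186855 with a fold of 40.6, chr19:59084394-59084702 with 46.3 and chr19:56652389-56653230 with 41.1. Those at chr19:56631827-56632991 (fold 38.2) and chr19:58897933-58898276 (fold 35.1) followed. The last of the 8 highest were chr19:54744158-54744512 (fold 33.2) and chr19:56091712-56092435 (fold 29.4), and the weakest by fold was chr19:55890016-55890165 (fold 4.33). None of the 8 highest overlapped a p63 peak, and their distances to the nearest p63 summit ran from 7.88 to 205 kb. This does not set them apart, since only 1.41% of all ZNF148 peaks of the band overlapped one, beside 4.94% in the rest. Several summits within 1 interval occurred in 11 of the 142 ZNF148 peaks of 19q13.4, or 7.75%, in 0 of the 16 of 19p12 (which allows up to 18.8%) and in 5.76% of those in the rest.

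ZNF148 peaks of the clusters had median folds near that of the rest of the chromosome, and those of p63 were somewhat lower. ZNF148 peaks had a median fold of 8.85 in 19p12 (quartiles 6.96 and 12.99), 9.38 in 19q13.4 (7.21 and 15.5) and 9.38 in the rest (6.49 and 14.4). p63 peaks had a median fold of 10.4 in 19p12 (7.55 and 12.4), 11.4 in 19q13.4 (8.33 and 16.2) and 12.75 in the rest (8.39 and 22.9). The medians of both p63 groups were lower than in the rest, but their order-statistic intervals (6.38 to 25.6 and 9.27 to 14.4) overlap that of the rest (11.8 to 13.7). None of the 50 p63 peaks was in the top 10% of the whole p63 list by q value, a count of 0 that allows a share of up to 6%, against 18 of 464 in the rest, or 3.88%. The clusters are therefore not shown to differ from the rest in this. For ZNF148 the numbers were 1 of 16 in 19p12, 7 of 142 in 19q13.4 and 87 of 1580, or 5.51%, in the rest. Median lengths of p63 peaks were 208, 211 and 232 bp in 19p12, 19q13.4 and the rest, and those of ZNF148 peaks 220, 264 and 251 bp.

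The title of the series names p63 and ZNF148 as cooperating, and the overlap of the lists shows how often both were found at the same place. In 19p12, the ZNF148 list had an overlapping peak for 4 of 10 p63 peaks, which is 40% (16.8 to 68.7%, Wilson), and in 19q13.4 it was 2 of 40, or 5% (1.38 to 16.5%). The share was 16.8% in the rest of chromosome 19 (13.7 to 20.5%) and 21.2% over chromosomes 1 to 22 and X. The share in 19p12 was 23.2 percentage points above that of the rest (Newcombe interval −0.281 to 52.1) and the share in 19q13.4 was 11.8 points below it (from 17.0 points below to 0.111 above), so both intervals just include no difference. Between the clusters the difference was 35 points (9.12 to 64.0). Without the last 0.5 Mb of 19p12, an alternative added after the data were seen, 1 of its 7 remaining p63 peaks was shared, or 14.3%, and the difference from 19q13.4 was 9.29 points (−7.13 to 46.5).

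Counted from the other list, 5 of 16 ZNF148 peaks of 19p12 overlapped a p63 peak, or 31.3% (14.2 to 55.6%). In 19q13.4 it was 2 of 142, or 1.41% (0.387 to 4.99%), beside 4.94% in the rest of the chromosome and 12.1% over all chromosomes analysed. The difference from the rest was 26.3 percentage points for 19p12 (9.19 to 50.7) and −3.53 points for 19q13.4 (−5.09 to 0.180). Without the last 0.5 Mb of 19p12 its share was 16.7% (4.70 to 44.8%). The 5 peaks of 19p12 stand for 4 places, since a pair of them flank the same p63 peak.

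Summits within 25 bp of each other were found at 3 of the 10 p63 peaks of 19p12, or 30.0% (10.8 to 60.3%), and at 1 of the 40 of 19q13.4, or 2.50% (0.443 to 12.9%). The background was 4.53% in the rest of chromosome 19 and 13.5% over chromosomes 1 to 22 and X. The share of 19p12 was 25.5 points above the rest (6.12 to 55.8), and this rests on the last 0.5 Mb of the band: without it the count was 0 of 7 (0 to 35.4%). That of 19q13.4 was 2.03 points below the rest (from 5.11 below to 8.47 above). For ZNF148 peaks the close share was 18.8% in 19p12 and 0.704% in 19q13.4, beside 1.33% in the rest and 7.67% over all. Few peaks stand behind the values of 19p12.

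The 2 shared p63 peaks of 19q13.4 lay near each other, in its dense middle. The pair at chr19:56334153-56334363 had folds of 17.2 for p63 and 19.5 for ZNF148, and its summits were 26 bp apart, just over the 25 bp limit. At chr19:56154706-56154999 the p63 fold was 32.2 and the ZNF148 fold 6.40, with summits 15 bp apart. Folds are read within each list only. By q value, the first p63 peak was in the top 44.1% of its list and its ZNF148 partner in the top 20.9%. In the second pair these values were 13.75% for p63 and 80.6% for ZNF148. Of the 10 p63 peaks in the window from 55800000 to 56300000, with its 44 ZNF148 peaks, 1 was shared, that of the second pair. That lies between the shares of all 19q13.4 (5%) and of the rest (16.8%).

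Over all their p63 peaks, shared or not, the clusters had longer median distances to ZNF148 than the rest. The median distance from a p63 summit to the nearest ZNF148 summit was 16 kb in 19p12, 18.7 kb in 19q13.4 and 5.59 kb in the rest. Within 10 kb of a ZNF148 summit lay 5 of 10 p63 peaks in 19p12 and 13 of 40 in 19q13.4, or 32.5%, against 63.6% in the rest. More than 100 kb away lay 2 of 10 and 6 of 40, against 3.66% in the rest.

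**Figure D4:**
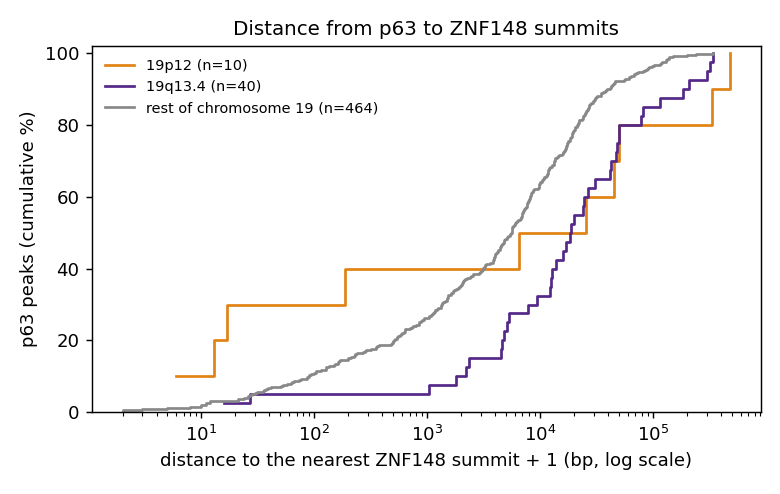
Cumulative share of p63 peaks (vertical axis, percent) by distance to the nearest ZNF148 summit (horizontal axis, bp plus 1, log scale) in each region. The line of 19p12 rises early to 40% through its 4 shared peaks, while that of 19q13.4 stays at 5% up to 1 kb; beyond 10 kb both run below the line of the rest.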

How the data were processed

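Each antibody has 1 deposited peak list in narrowPeak layout without a header. MACS2 2.2.6, Bowtie2 2.3.4.3, SAMtools 1.7, FastQC 0.11.9, MultiQC 1.12 and build hg19 appear in the submitters' processing notes, without roles or settings. Not given in the sources used here are the control library, duplicate handling and the treatment of reads that match several places. The fold enrichment (a ratio) and the −log10 p and q values of each peak are the authors' deposited values. The deposited score restates −log10 q (times 10, cut to a whole number, in 100% of rows) and was not used. Read depth is unknown.

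Rows that share start and end were joined into 1 peak, represented by the summit with the highest −log10 q, on chromosomes 1 to 22 and X. Positions are 1-based. Overlap meant at least 1 bp, checked with bedtools 2.31.1. Closely set peaks are neighbours of 1 list no more than 12.5 kb apart, and stretches hold at least 3 of them. Intervals are exact Poisson for densities, exact conditional for ratios, Wilson for shares, Newcombe for differences of shares and order-statistic for medians. Where a count of 0 is said to allow a share, the limit is 3 divided by the number of peaks, an approximate upper limit and not a Wilson interval. Peaks named were the 8 most significant of each list and cluster, the weakest, all p63 peaks of 19p12, up to 6 shared pairs per cluster, and extreme windows and gaps; others were named after their values were seen. Clusters, lists and tests were chosen with earlier results of these data known. Motif and promoter sequences need an hg19 genome and were not analysed here. Functions were tested on simulated peaks. Calculations used Python 3.11.15, numpy 2.4.6, pandas 2.3.3, scipy 1.17.1 and matplotlib 3.10.9.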

Additional observations from a re-analysis of the deposited data

How the results depend on the processing

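The 20 values recomputed (density ratio, list ratio, median fold, shared share, close share and share in stretches, by list and cluster) gave 131 alternative values. Of these, 117 stayed inside the counting interval of the reported value and 14 left it. A change of direction was looked for in the density ratios only, and 0 of them changed. Interval widths are large for 19p12, so staying inside says little there. The rest of chromosome 19 was denser than either cluster under every alternative run, by 4.39 to 6.07 times for p63 and 9.33 to 14.9 times for ZNF148 in 19p12, and by 1.66 to 1.93 and 1.59 to 2.14 times in 19q13.4. The last value, 2.14, came from leaving out the 1 Mb window with most peaks of each region, which also lowered the share in stretches in 19q13.4 to 51.1% for ZNF148 and 0% for p63, and to 0% for ZNF148 in 19p12. Peaks with a fold of at least 10 gave, by construction, higher median folds in 19q13.4 (15.3 for p63, 15.8 for ZNF148). They also gave shares of ZNF148 peaks in stretches of 20% in 19q13.4 and 0% in 19p12, and a close share of 0% for p63 in 19q13.4. With the ZNF148 list at the length of the p63 list, the close share of 19q13.4 was again 0% and ZNF148 had 2 peaks per p63 peak there. Neighbours within 25 kb put 76.1% of its ZNF148 peaks in stretches. The shared share of p63 peaks ran from 14.3 to 60% in 19p12 and from 2.5 to 6.45% in 19q13.4, and ZNF148 peaks per p63 peak in 19p12 from 0.8 to 1.75. Without the last 0.5 Mb of 19p12, 14.3% of its p63 peaks were shared and 0% close. Both shares then lay below those of the rest (16.8% and 4.53%), while the reported shares lay above them. No paired analysis was possible because each antibody has 1 library. Promoter and motif alternatives were not run for lack of an hg19 genome.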

Other observations

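Deposited folds fell partly on a grid. Of the 158 ZNF148 peaks in the clusters, 96 (60.8%) had a fold that was a whole multiple of 0.7215, within 0.002 of a step, and the weakest of these was 6 steps high and the median 12. Of the 50 p63 peaks, 23 (46.0%) were whole multiples of 0.4414, with a median of 28 steps and the lowest at 10. Both shares were lower than in the rest of chromosome 19 (76.0% and 65.3%) and higher than over chromosomes 1 to 22 and X (44.5% and 31.3%). Several peaks have identical folds, such as the p63 peaks at chr19:21203663-21203873 and chr19:24335907-24336180, both at 12.4. The steps were themselves derived from the folds that recur most, so the grid is a description, and its cause was not tested.

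Just outside the limits, the p63 peak before 19p12, at chr19:19887314-19887638, had a fold of 54.3, above that of any p63 peak inside the clusters. The p63 peak before 19q13.4, at chr19:52208402-52208626, had a fold of 7.06, and the one after it, at chr19:59108203-59108472, a fold of 16.8.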
